A study of Mus musculus with 13 samples.

Results

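The Il17a-producing T cells of colon tumors and the mucosa next to them were defined from the single-cell counts by 1 gate, and 898 of the 118892 retained barcodes passed it. A retained barcode held at least 500 UMIs (unique molecular identifiers, which count captured RNA molecules), at least 200 genes and under 25% mitochondrial UMIs. An Il17a+ T cell held at least 2 UMIs of Cd3d, Cd3e and Cd3g together and at least 1 UMI of Il17a, and no UMI of Foxp3, Cd8a or Cd79a. Of these cells 843 came from 10 tumors and 55 from 3 mucosa samples. They were divided by Trdc, the constant segment of the δ chain of the T cell receptor, into 234 Trdc+ cells with at least 1 UMI and 664 Trdc- cells with none. The comparison cells were the 6685 Il17a- T cells that passed every other part of the gate, 4488 in tumors and 2197 in mucosa. The values that chose the cells (Il17a, the CD3 genes, Foxp3, Cd8a, Cd79a and, for the division, Trdc) are descriptions, and their levels were not tested between the cells they divide. How many cells passed was compared between tissues.

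Interleukin-17A is a secreted cytokine that acts on epithelial cells, fibroblasts and endothelial cells, and leads them to release chemokines and growth factors that draw neutrophils. In the gut it is made by CD4+ T helper 17 cells, by γδ T cells and by innate lymphoid cells. These cells respond to interleukin-23 through a receptor that contains Il23r, and to interleukin-1 through Il1r1. The γδ T cells that make interleukin-17 commonly leave the thymus already committed to it and carry few variable segments, whereas T helper 17 cells acquire the program from naive CD4+ T cells.

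All samples came from C57BL/6J mice of the genotype ApcMin/+; p16cis/cis, so tumors and mucosa alike carried the germline Apc mutation and the p16 promoter methylation allele. Every mouse was on the supplemented diet, which adds choline, betaine, folic acid and vitamin B12 and was given before conception, through pregnancy and in life. No mouse on a control diet and no mouse without these alleles was analysed here. The animal codes tie the samples to 3 mice, here called A (24 weeks old, tumors 5 to 8 and mucosa 2), B (23 weeks, tumors 9 and 10 and mucosa 3) and C (20 weeks, tumors 1 to 4 and mucosa 1). Tumors of 1 mouse share their animal. Tumors were dissociated with a tumor enzyme kit and mucosa with EDTA and TrypLE, so tissue and dissociation cannot be told apart.

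Each library held 5188 to 10817 retained barcodes of 6537 to 15049 deposited, and 57221300 to 116133079 deposited UMIs. The labels give 7 of the 13 libraries (mucosa 1 and 3 and tumors 2, 6, 8, 9 and 10) as female, and libraries of 1 animal code carry different sexes. All 13 libraries held Y-linked RNA at 104.7 to 128.7 CPM (counts per 1000000 UMIs) and Xist, the RNA of the inactive X chromosome, at no more than 0.134 CPM, so the labelled sex was used for no comparison. Results are given below with and without those 7 libraries. Pairs of libraries shared 14 to 61 barcodes, and no shared barcode was an Il17a+ T cell in both.

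The start regions of Il17a, Il17f and Il23r are shown because these genes mark the cells and Il17f and Il23r were higher in them. The sequences are from RefSeq on build GRCm38.p6, each 300 bases on the strand of the gene, with 250 bases before the start and 50 after it. Capitals mark AGGTCA, a hexamer that nuclear receptors recognise, or its reverse complement TGACCT.
Il17a, chr1:20730655-20730954, plus strand: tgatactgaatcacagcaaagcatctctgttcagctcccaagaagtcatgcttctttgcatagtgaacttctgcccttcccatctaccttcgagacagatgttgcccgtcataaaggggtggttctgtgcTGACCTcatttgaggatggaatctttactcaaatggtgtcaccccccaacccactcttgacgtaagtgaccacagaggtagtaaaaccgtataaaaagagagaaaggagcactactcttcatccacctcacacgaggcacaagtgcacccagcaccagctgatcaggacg
Il17f, chr1:20784221-20784520, minus strand: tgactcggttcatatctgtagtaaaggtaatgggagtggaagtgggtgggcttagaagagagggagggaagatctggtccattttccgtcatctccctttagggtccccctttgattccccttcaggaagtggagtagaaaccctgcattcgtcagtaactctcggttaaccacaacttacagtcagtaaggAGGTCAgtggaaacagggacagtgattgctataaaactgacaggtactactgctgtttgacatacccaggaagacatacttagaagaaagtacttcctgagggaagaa
Il23r, chr6:67491806-67492105, minus strand: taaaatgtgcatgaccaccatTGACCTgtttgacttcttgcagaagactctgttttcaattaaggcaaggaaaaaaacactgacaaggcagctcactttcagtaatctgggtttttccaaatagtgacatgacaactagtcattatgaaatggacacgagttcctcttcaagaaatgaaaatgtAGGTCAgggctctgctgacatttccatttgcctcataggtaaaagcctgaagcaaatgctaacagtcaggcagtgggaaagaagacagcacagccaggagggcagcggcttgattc
The match began 120 bases upstream of the start in Il17a and 58 bases upstream in Il17f. Il23r held 2 matches, 229 and 66 bases upstream. A match on either strand was found in 5340 of 32851 start regions of this length (16.3%). Counted by gene over all its start regions, it was found in 18.1% of all genes. Of the type 17 list, 24 genes had a start region here, and 5 of them held a match (20.8%). Of the 6663 genes tested between Il17a+ and Il17a- T cells of tumors, 5337 had a start region here under the same symbol. A match was found in 14.8% of these, in 18.3% of the 525 that were higher and in 15.2% of the 532 that were lower.

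Il17a RNA was rare outside T cells. In tumors 15.8% of the T cells that passed the gate without its Il17a condition held an Il17a UMI, at a median depth of 3090 to 4538 UMIs per library. The share was 0.0451% in neutrophils (14 of 31043, median depth 2520 to 3348), 0.0454% in macrophages and 0.104% in epithelial cells, whose median depth was 10980 to 16118.5 UMIs. In mucosa it was 2.44% of the T cells and 0.012% of the epithelial cells. The Il17a+ T cells held 94.5% of the Il17a UMIs of tumors and 91.1% of those of mucosa. Outside the gate, 19 of 511 Foxp3+ T cells of tumors (3.72%) and 9 of 1229 Cd8a+ T cells (0.732%) held Il17a. Among barcodes with CD3 and Cd79a UMIs, 26 of 283 held Il17a (9.19%). Ncr1, 1 of 7 genes listed for innate lymphoid cells, was found in 0 of 843 Il17a+ T cells of tumors, which allows a share of up to 0.356%. In mucosa it was found in 0 of the 55, which allows up to 5.45%. These limits are on cells with an Ncr1 UMI, not on cells that express the gene. Il7r, which is on the innate lymphoid list and on the type 17 list, was found in 651 of the 843 cells. Ncr1 alone does not tell whether innate lymphoid cells passed the gate. Here and below, a limit for a count of 0 cells is 3 over the number of cells, which is lower than the upper end of an exact 95% interval. Intervals and limits cover counting error only.

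The named markers were detected in part of the cells. Il23r was found in 14.6% of the Il17a+ T cells of tumors and in 2.61% of the Il17a- T cells. The median depth was 4525 UMIs in Il17a+ T cells and 3633.5 in Il17a- T cells. Among the Il17a+ T cells of tumors, Il17f was found in 18.0%, Il22 in 10.4%, Il1r1 in 32.2% and Ccr6, the receptor for the chemokine Ccl20, in 9.73%. Rora and Maf, transcription factors of type 17 cells, were found in 83.9% and 66.9%. Few cells held Il21 (1.66%), Il10 (0.475%) or Il2 (0.356%). An Il17a- cell is a cell with no Il17a UMI at this depth.

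Il17a RNA was unevenly spread among the cells. Its median was 5 UMIs per Il17a+ T cell in tumors, with a mean of 16.1 and a highest value of 643 in 1 cell of tumor 5. At the threshold, 163 cells of tumors (19.3%) held exactly 1 Il17a UMI and 10 held exactly 2 CD3 UMIs, while 13 barcodes with Il17a and 1 CD3 UMI were left out. The 26 cells with 100 or more UMIs held 36.5% of the Il17a UMIs of the Il17a+ T cells of tumors. The Trdc+ cells of tumors had a median of 11 Il17a UMIs and the Trdc- cells a median of 4, at median depths of 5013 and 4301 UMIs. The median was higher in the Trdc+ cells in each of the 10 tumors. In mucosa the median was 4 over the 55 cells and the highest value 51, and the 8 Trdc+ cells there held 1 to 6 UMIs each, with a median of 1.5.

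Most Il17a+ T cells held RNA of Cd4 or Trac and none of Trdc. Of the 843 cells of tumors, 546 (64.8%) had no Trdc and at least 1 UMI of Cd4 or of Trac, the constant segment of the α chain. A further 226 (26.8%) had Trdc, and 71 (8.42%) had none of Trdc, Cd4 and Trac. Of the 546 cells, 329 had Cd4 and the others had Trac alone. Trdc and Cd4 met in 1 cell, whereas Trdc and Trac met in 60 of the 226 Trdc+ cells (7.12% of the 843). Trac alone therefore does not set αβ cells apart here. In mucosa 42 of 55 cells were of the Cd4 or Trac kind (76.4%), 8 had Trdc and 5 had none of these genes.

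Il17a+ T cells made up a larger share of CD3+ barcodes, and of Trdc+ T cells without Cd8a, in tumors than in mucosa. As a share of all CD3+ barcodes of a library, the Il17a+ T cells were 12.5, 18.1, 13.1 and 9.85% in tumors 1 to 4 of mouse C, 9.48, 11.1, 5.11 and 7.63% in tumors 5 to 8 of mouse A, and 12.3 and 13.3% in tumors 9 and 10 of mouse B. They were 1.77, 0.788 and 0.917% in mucosa 1 to 3. Every tumor lay above every mucosa sample. The means over mice were 11.5% ± 2.77 in tumors and 1.16% ± 0.535 in mucosa (SD, n = 3 mice), a difference of 10.4 percentage points. The exact within-mouse permutation test gave a two-sided p of 0.0133, the smallest that its 75 arrangements allow, and 0.0267 adjusted over the 4 shares tested. The arrangements move the mucosa label among the libraries of each mouse. The p-values of this test therefore also rest on the spread of tumors within mice, and are not tests over 3 animals alone. By mouse the difference was 7.54 points (A), 11.9 points (B) and 11.6 points (C). Among barcodes with at least 1000 UMIs, thinned to 1000, the means were 8.33% and 1.00%. The limit of 1000 UMIs left out 52 of 7354 CD3+ barcodes of tumors and 350 of 4879 of mucosa. For these shares the whole gate was applied again to the thinned counts, and more barcodes dropped out in every library. In tumor 1 the CD3+ barcodes went from 1001 to 723 and the Il17a+ T cells from 125 to 82. In mucosa 1 they went from 1410 to 1238 and from 25 to 17.

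Among the Trdc+ T cells that passed the rest of the gate, the share with Il17a was 58.1, 71.2, 59.5 and 47.3% in tumors 1 to 4, 38.1, 39.3, 29.4 and 32.8% in tumors 5 to 8, and 34.4 and 40.6% in tumors 9 and 10. The share was 4.24% in mucosa 1, 1.44% in mucosa 2 and 0 of 254 cells in mucosa 3, which allows up to 1.18%. All 10 tumors were above all 3 mucosa samples. The means over mice were 43.8% ± 13.2 and 1.89% ± 2.16 (SD, n = 3 mice), which differed by 41.9 points (33.5, 37.5 and 54.8 in mice A, B and C; exact within-mouse permutation test, adjusted p = 0.0267). Thinned to 1000 UMIs, the means were 33.6% and 1.16%. The gate left out Cd8a+ cells, so γδ T cells with a Cd8a UMI are not in these shares. Cd8a+ cells without Foxp3 and Cd79a were 2561 of the 4879 CD3+ barcodes of mucosa and 1229 of the 7354 of tumors. Trdc+ T cells that passed the gate, with or without Il17a, were 25.8% of the gated T cells of mucosa and 8.93% of those of tumors. Of these Trdc+ cells, 8 of 581 in mucosa and 226 of 476 in tumors held Il17a.

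As a share of all retained barcodes, the Il17a+ T cells made up 0.395 to 1.72% of tumors and 0.482, 0.103 and 0.208% of mucosa 1 to 3. The means over mice were 0.958% ± 0.361 and 0.264% ± 0.196 (SD, n = 3 mice), and this difference did not pass the exact within-mouse permutation test (p = 0.04, adjusted p = 0.0533). The Trdc+ share of the Il17a+ T cells was 11.4 to 56.8% in tumors and 20.0, 27.3 and 0% in mucosa, where mucosa 3 had 0 of 19 cells, which allows up to 15.8%. It did not pass the test (exact within-mouse permutation p = 0.147). Without the libraries labelled female, tumors 5 and 7 and mucosa 2 of mouse A were left for a comparison within a mouse, and the differences were 6.51 points for the share of CD3+ barcodes and 32.3 points for the share of Trdc+ T cells, in a design whose smallest p is 0.333. The calls for the share of CD3+ barcodes and for the share of Trdc+ T cells were lost when any 1 mucosa sample was left out, with differences of 9.57 to 11.8 and 35.5 to 46.1 points, since the smallest p is then 0.0667 (0.04 without mucosa 3, adjusted 0.08). The share of retained barcodes passed when any 1 of tumors 2 to 8 was left out (adjusted p = 0.0444), with differences of 0.621 to 0.746 points.

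**Figure D1:**
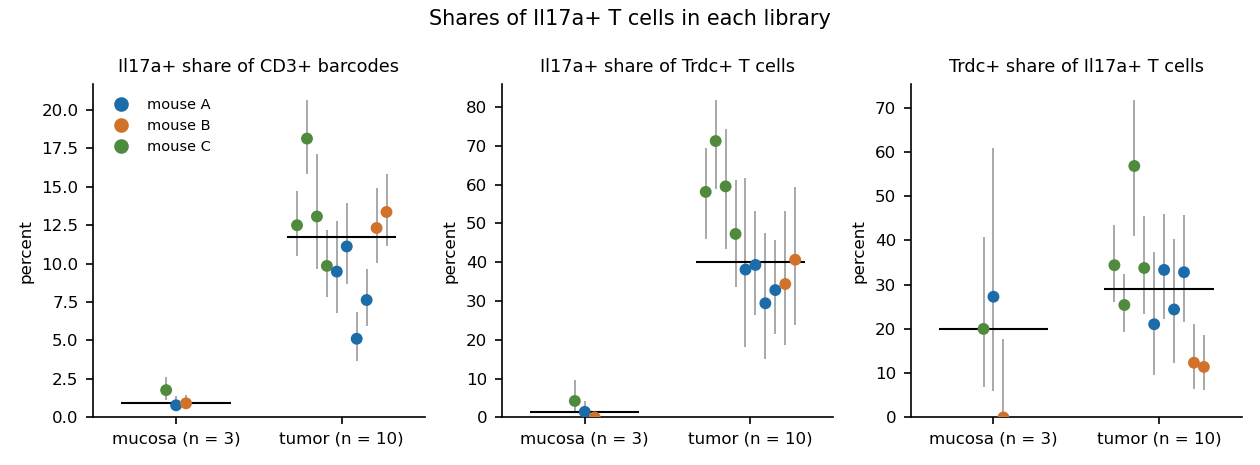
Shares of Il17a+ T cells in each library, in percent (y axis), for tumors and mucosa (x axis). The panels show the share of CD3+ barcodes, the share of Trdc+ T cells and the Trdc+ share of the Il17a+ T cells. Points are libraries colored by mouse, bars are 95% exact binomial intervals and horizontal lines are group medians. In the first and second panels all 10 tumors lie above all 3 mucosa samples, and in the third the groups overlap.

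The balance of γδ and αβ cells in tumors varied between the 3 mice, but not beyond the adjusted threshold. The mean Trdc+ share of the Il17a+ T cells of tumors was 37.6% in mouse C, 27.9% in mouse A and 11.9% in mouse B (exact permutation of tumors over mice, p = 0.021, adjusted over 3 shares 0.0629). For the share of CD3+ barcodes the means were 13.4%, 8.33% and 12.8% (p = 0.0781, adjusted 0.117). Neutrophils made up 27.7 to 46.0% of the retained barcodes of tumors that held no CD3 UMI, and macrophages 6.89 to 13.8%. Over the 10 tumors the Il17a+ share of CD3+ barcodes had a Pearson correlation of -0.21 (permutation p = 0.564) and a Spearman correlation of -0.564 (p = 0.0975, adjusted 0.390 over 4 correlations) with the neutrophil share, and of 0.166 (p = 0.652) and 0.0182 (p = 0.973) with the macrophage share. Without tumors 2 and 7, which lay farthest from the median, the Pearson values were -0.794 and -0.136. All shares come from the same libraries. The Il17a+ share is over CD3+ barcodes and the other shares are over retained barcodes with no CD3 UMI. No mouse had the 6 tumors needed for a value within it.

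Within tumors, Il17a+ T cells were compared with the Il17a- T cells of the same library. For each gene the UMIs were summed over the cells of each library and side and tested with edgeR's quasi-likelihood test with the library as a block, and levels are given as CPM of those sums. The sums held 244561 to 852378 UMIs in Il17a+ cells and 793621 to 3141585 in Il17a- cells. At an adjusted p under 0.05, 1359 of 6663 genes passed (20.4%), of which 684 had the higher level in Il17a+ cells (10.3% of those tested) and 675 the lower level (10.1%), and for 1.44% of the genes the libraries of the 2 sides did not overlap. Without the libraries labelled female 405 genes passed in place of 1359, and without the block 815. Of 84 ribosomal protein genes, 0 were higher and 67 were lower, with a median log2 fold change of -0.31, against -0.0048 over all genes.

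The type 17 program was higher in Il17a+ cells, and the largest change was in Il17f, the cytokine encoded next to Il17a. Of 28 genes of the type 17 list tested, 22 were higher and 3 lower, and the median log2 fold change of the list was 0.91. Il17f was at 63.7 to 658.5 CPM in Il17a+ cells (median 204.4) and at 0 to 12.4 CPM in Il17a- cells (median 2.78). It was higher in 10 of 10 tumors with no overlap, by 5.82 ± 0.31 on the log2 scale (SE, adjusted p = 5.02e-09). Il23r was at 14.5 to 53.2 CPM (median 27.3) against 2.92 to 11.2 CPM (median 5.06), with a log2 difference of 2.10 ± 0.21 (adjusted p = 3.07e-06). Il1r1 was at 63.7 to 139.0 CPM (median 82.7) against 8.49 to 24.1 CPM (median 14.9), by 2.38 ± 0.17 (adjusted p = 8.53e-08). These receptors for interleukin-23 and interleukin-1 were higher in each tumor. Also higher were Blk, a Src family kinase (log2 4.18 ± 0.26), Tmem176a and Tmem176b, membrane proteins common in type 17 cells (1.21 ± 0.075 and 0.90 ± 0.07), and Ramp1, a co-receptor for the neuropeptide CGRP (1.82 ± 0.12). Ccr6 rose by 0.86 ± 0.21 on the log2 scale (adjusted p = 0.00651). The 3 genes of the list that were lower were Il7r, the interleukin-7 receptor (-0.43 ± 0.07), Il18r1 (-0.30 ± 0.08) and Lgals3 (-0.88 ± 0.20). Ahr, Batf and Kcnk1 did not pass, and Sox13 and Zbtb16 were too low to be tested.

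Among cytokines, 5 of 15 tested were higher and 2 lower. Il22, which acts on epithelial repair, was at 36.3 to 1521 CPM (median 299.3) in Il17a+ cells and at 1.25 to 243.2 CPM (median 33.1) in Il17a- cells, higher in 9 of 10 tumors (log2 2.99 ± 0.54, adjusted p = 0.000808). Areg, which encodes amphiregulin, a ligand of the epidermal growth factor receptor, was at 559.0 to 2309 CPM (median 818.8) against 279.4 to 995.5 CPM (median 310.0), by 1.44 ± 0.22 (adjusted p = 0.000158). The sides overlapped, although Areg was higher in the Il17a+ cells of each tumor. Tgfb1 and Furin were higher by 0.48 ± 0.10 and 0.52 ± 0.10. Csf1 (-1.54 ± 0.31) and Ifng, the type 1 cytokine (-0.59 ± 0.19, adjusted p = 0.0359), were lower, with Ifng above the Il17a- side in 3 of 10 tumors. The call for Ifng was lost when tumor 1, 2, 4, 6 or 10 was left out (-0.51 to -0.62, adjusted p = 0.0562 to 0.102).

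The cytotoxic and type 1 genes were lower, with 10 of 12 lower and 1 higher and a list median of -1.71. Ccl5, a chemokine of effector T and natural killer cells, was at 32.7 to 243.8 CPM (median 71.6) in Il17a+ cells and 819.2 to 2243 CPM (median 1359) in Il17a- cells, with no overlap (log2 -3.87 ± 0.20, adjusted p = 4.72e-09). Klrd1, which encodes the natural killer receptor chain CD94, had medians of 27.7 and 232.8 CPM (log2 -3.17 ± 0.17). Xcl1 (-4.01 ± 0.48), Cd7 (-3.74 ± 0.37), Nkg7 (-1.90 ± 0.24) and Fasl, the death ligand (-1.53 ± 0.18), were lower as well. Il12rb2, the receptor chain for the type 1 cytokine interleukin-12, was lower too (-2.64 ± 0.26). The gene of the list that was higher was Gzmb, which encodes granzyme B (1.15 ± 0.22, adjusted p = 0.00136, higher in 8 of 10 tumors). Cd8b1, the second CD8 chain, was lower (-3.23 ± 0.42).

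Homing genes moved in both directions, with 7 of 20 higher and 8 lower. Higher were the chemokine receptors Ccr2 (0.94 ± 0.12), Cxcr6 (0.82 ± 0.11) and Ccr1 (0.59 ± 0.12), the oxysterol receptor Gpr183 (0.63 ± 0.09), the integrin chain Itgb7 (0.37 ± 0.06) and Rgs1 (0.72 ± 0.11). Lower were the receptor Cxcr3 of type 1 cells (-1.63 ± 0.16), the integrin chain Itga1 (-3.10 ± 0.37) and genes of recirculating T cells, namely S1pr1 (-1.28 ± 0.24) and the transcription factor Klf2 (-1.06 ± 0.14). Tcf7 and Lef1, transcription factors of naive and memory T cells, were lower (-2.23 ± 0.20 and -1.39 ± 0.19). So was the costimulatory receptor Cd27 (log2 -3.99 ± 0.36), which interleukin-17-producing γδ T cells are known to lack. Among Trdc- cells alone Cd27 was lower too (log2 -3.63 ± 0.38), and among Trdc+ cells alone it was not tested.

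Of 15 checkpoint and costimulation genes 5 were higher and 4 lower. Ctla4, an inhibitory receptor, was at 527.0 to 1004 CPM (median 665.1) in Il17a+ cells and 293.3 to 417.6 CPM (median 348.3) in Il17a- cells, without overlap (log2 0.90 ± 0.075, adjusted p = 4.18e-07). Pdcd1, which encodes PD-1, was higher by 1.25 ± 0.12, Havcr2, which encodes TIM-3, by 1.04 ± 0.15, Tnfrsf9 by 0.60 ± 0.11 and Icos by 0.40 ± 0.06. Tnfrsf18 and Tnfrsf4, the costimulatory receptors GITR and OX40, were lower (-1.51 ± 0.11 and -1.24 ± 0.17). Of the genes common in regulatory T cells, Ctla4 and Il2ra (1.08 ± 0.16) were higher, and Tnfrsf18 and Ikzf2 (-1.53 ± 0.17) were lower. Of 10 proliferation genes 0 passed in edgeR, 0 at an unadjusted p under 0.05 and 0 in DESeq2.

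RNA of other cell types was present on both sides. The 6 neutrophil genes summed to 73.6 to 9488 CPM in Il17a+ cells and 2109 to 8830 CPM in Il17a- cells, and 2 of them were lower (S100a8 -1.11 ± 0.32, S100a9 -1.14 ± 0.34, both lost without tumor 4, at -1.03 and -1.07, and S100a9 also without tumor 2, at -1.09). The 8 macrophage genes summed to 250.2 to 5293 CPM against 297.4 to 2119 CPM, and of the 7 tested 0 passed in edgeR (1 at an unadjusted p under 0.05, 1 in DESeq2). Of 5 epithelial genes 0 passed in edgeR (3 at an unadjusted p under 0.05, 2 in DESeq2). Of 15 genes that respond to dissociation, 2 were higher (Jund 0.32 ± 0.05, and Junb 0.20 ± 0.07, which was lost without tumor 1, 2, 7, 8 or 9, at 0.16 to 0.20) and 3 lower, among them Hspa1b (-1.31 ± 0.23). The part of these RNAs in the results was not tested, and 1374 genes passed when barcodes with 2 or more UMIs of other lineages' markers were removed from both sides.

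**Figure D2:**
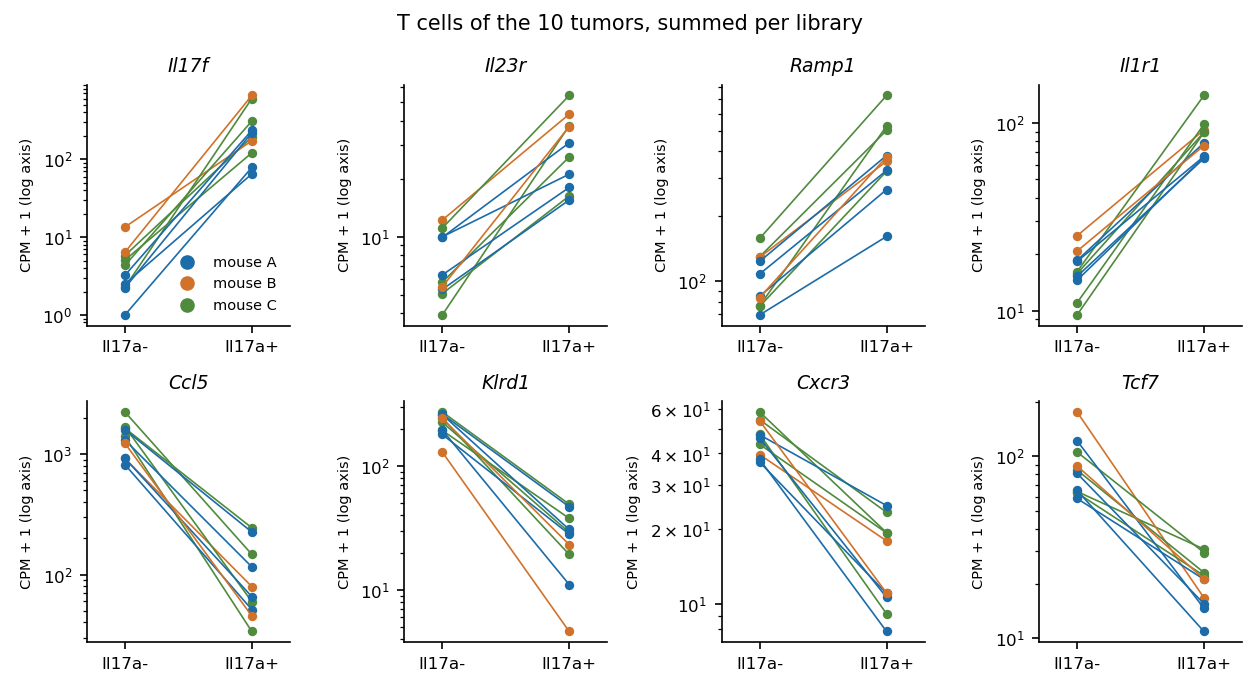
Levels of 8 genes in Il17a+ and Il17a- T cells of each of 10 tumors, as CPM + 1 on a log axis, with lines joining the 2 sides of a tumor. Il17f, Il23r, Ramp1 and Il1r1 are higher and Ccl5, Klrd1, Cxcr3 and Tcf7 lower in the Il17a+ cells of each tumor, without overlap of the sides.

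The Il17a+ cells held more γδ T cells than the Il17a- cells (Trdc at 387.8 to 2098 CPM against 35.6 to 174.0 CPM), so the comparison was repeated among Trdc- cells alone and among Trdc+ cells alone. Among Trdc- cells 753 genes passed (382 higher, 371 lower) and among Trdc+ cells, in 9 tumors, 342 of 1645 tested (141 higher, 201 lower). Il17f was higher by 5.63 ± 0.32 among Trdc- cells and by 5.05 ± 0.54 among Trdc+ cells. Ctla4 was higher in both (0.96 ± 0.08 and 1.08 ± 0.19), as was Ramp1 (1.5 ± 0.15 and 1.24 ± 0.17), and Ccl5 was lower in both (-4.50 ± 0.26 and -4.48 ± 0.48).

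Some genes passed within Trdc+ cells but not within Trdc- cells. Gzmb had a log2 fold change of -0.65 ± 0.30 (adjusted p = 0.19) among Trdc- cells and 1.09 ± 0.27 (adjusted p = 0.0108) among Trdc+ cells. Pdcd1 had 0.15 ± 0.16 (adjusted p = 0.616) and 0.81 ± 0.16 (adjusted p = 0.00279), Tnfrsf9 -0.087 ± 0.11 (adjusted p = 0.686) and 0.93 ± 0.19 (adjusted p = 0.0032), and Il2ra 0.22 ± 0.22 (adjusted p = 0.58) and 2.07 ± 0.24 (adjusted p = 7.12e-05). Among Trdc- cells Ifng was at -0.19 ± 0.21 (adjusted p = 0.628), and Cd28 at -0.34 ± 0.12 (adjusted p = 0.0865). Ifng and Cd28 were not tested among Trdc+ cells. The differences between the strata were not tested. Areg was higher among Trdc- cells (0.98 ± 0.23, adjusted p = 0.00771), and among Trdc+ cells it had 1.07 ± 0.50 (adjusted p = 0.151).

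The γδ receptor genes rose within the comparison as a whole, with 5 of 6 tested higher. Trdv4, a variable segment of the δ chain, was at 48.5 to 813.7 CPM (median 274.9) against 4.49 to 39.1 CPM (median 15.2), with no overlap (log2 3.73 ± 0.36). It was higher also among Trdc+ cells alone (1.56 ± 0.25, adjusted p = 0.000476), where Blk (2.10 ± 0.24) and the scavenger receptor gene Cd163l1 (0.87 ± 0.24) were higher too. Of the constant segments, Tcrg-C1 was higher among Trdc+ cells alone (0.67 ± 0.17). There Tcrg-C2 and Tcrg-C4 turned direction and did not pass (-0.36 ± 0.28 and -0.23 ± 0.20). Tcrg-C1 and Tcrg-C2 are closely similar copies whose reads could be split between them, and their values are uncertain.

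**Figure D3:**
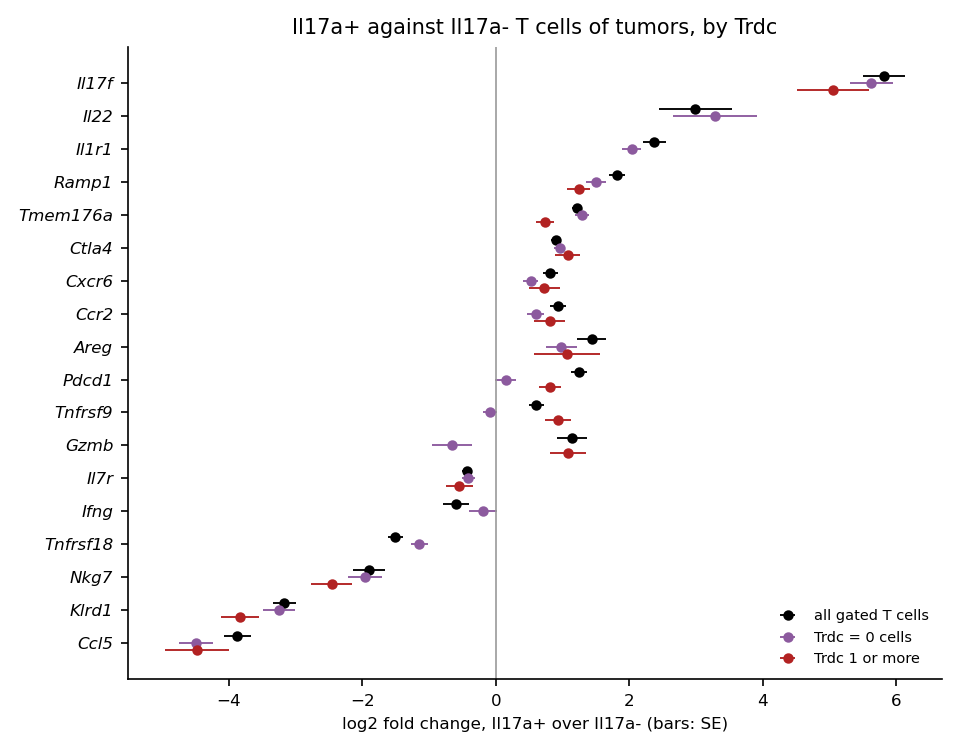
Log2 fold change of 18 genes between Il17a+ and Il17a- T cells of tumors (x axis), with bars of 1 SE, for all gated cells (black), for Trdc- cells (purple) and for Trdc+ cells (red). A missing point is a gene too low to be tested in that stratum. Il17f, Ccl5, Klrd1 and Ctla4 passed in the same direction in both strata. Gzmb, Pdcd1 and Tnfrsf9 lie near or below 0 in Trdc- cells and above 0 in Trdc+ cells. The strata were not tested against each other.

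Trdc+ and Trdc- Il17a+ T cells of tumors were then compared with each other in the 9 tumors with enough cells of each kind, tumor 5 being left out with 8 Trdc+ cells. The sums held 57353 to 232354 UMIs on the Trdc+ side and 79219 to 757533 on the Trdc- side. There 205 of 2791 genes passed (7.35%), 118 with the higher level in Trdc+ cells (4.23% of those tested) and 87 with the lower level (3.12%), and for 1.4% of the genes the sides did not overlap. Without the libraries labelled female 59 genes passed.

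Trdv4 was found in 84.9% of the 218 Trdc+ cells and in 1 of the 587 Trdc- Il17a+ cells of the same 9 tumors (0.170%). It had 1459 UMIs on the Trdc+ side and 1 on the other, a ratio with a counting interval of 644.2 to 1.42e+05. Among Il17a- T cells with Trdc, Trdv4 was found in 29.2% of those of tumors and 5.06% of those of mucosa. The segment Tcrg-V6, which pairs with this δ chain in γδ T cells of mucosal tissues, was found in 21.6% of the Trdc+ cells and 0.170% of the Trdc- cells. Cd163l1 was at 87.5 to 792.4 CPM (median 460.5) on the Trdc+ side and at 0 to 5.23 CPM on the Trdc- side (log2 8.0 ± 0.36, adjusted p = 1.48e-09). Blk was higher by 4.76 ± 0.33. Zbtb16 and Sox13, transcription factors of innate-like and γδ T cells, were found in 28.0% and 8.72% of Trdc+ cells against 2.39% and 0.511% of Trdc- cells, at median depths of 5013 and 4258 UMIs.

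Of 8 genes of the αβ receptor and CD4 list, 0 were higher and 5 lower in Trdc+ cells. Icos and the constant segments of the β chain, Trbc1 and Trbc2, did not pass. Trbc2 was found in 82.6% of the Trdc+ and 89.8% of the Trdc- cells, and Trbc1 in 63.8% and 53.2%. Cd4 had 1 UMI against 560, a ratio of 227 with a counting interval of 40.6 to 8993. The costimulatory receptor Cd28 had 2 UMIs against 502 (ratio 102, interval 28.1 to 844.0), and the kinase Lck, which couples CD4 to signalling, 3 against 659 (ratio 89.2, interval 30.4 to 433.0). Cd6, Cd5 and Cd2, adhesion and regulatory molecules of T cells, were lower (log2 -5.11 ± 0.38, -4.92 ± 0.39 and -3.75 ± 0.25). Trac was lower as well (-1.99 ± 0.19) and was at 36.0 to 150.6 CPM in the Trdc+ cells. Tnfrsf4 had 0 UMIs in Trdc+ cells and 801 in Trdc- cells, at least 108-fold lower.

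Of 11 cytokine genes tested 1 was higher in Trdc+ cells (Areg), 3 were lower (Il22, Ifng and Tnfsf8) and 7 did not pass. Il17f was at 97.8 to 2092 CPM (median 220.8) in Trdc+ cells and 20.3 to 470.6 CPM (median 185.8) in Trdc- cells, and the difference did not pass (log2 1.18 ± 0.49, adjusted p = 0.171, higher in 7 of 9 tumors). Il22 had 83 UMIs in Trdc+ cells and 1971 in Trdc- cells, and was lower in 8 of 9 tumors (log2 -4.41 ± 0.99, adjusted p = 0.0108). It was found in 1.38% of the Trdc+ and 13.6% of the Trdc- cells. Ifng was at 0 to 136.2 CPM (median 8.61) against 112.9 to 507.8 CPM (median 276.6), lower in 9 of 9 tumors (log2 -3.31 ± 0.42, adjusted p = 0.00014). It was found in 4.13% and 25.7% of the cells. Tnfsf8, which encodes the ligand of CD30, had 3 UMIs against 306 (ratio 41.4, interval 14.0 to 202.0). Areg was at 692.9 to 5759 CPM (median 1384) in Trdc+ cells and 344.2 to 2287 CPM (median 590.3) in Trdc- cells. It was higher in 9 of 9 tumors (log2 1.24 ± 0.29, adjusted p = 0.0146).

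Of 8 checkpoint and costimulation genes 3 were higher in Trdc+ cells, 3 were lower and 2 did not pass, and of 4 cytotoxic genes Gzmb was higher. Gzmb was at 505.8 to 4472 CPM (median 1462) in Trdc+ cells and 36.6 to 287.9 CPM (median 120.4) in Trdc- cells, with no overlap (log2 3.76 ± 0.35, adjusted p = 4.15e-06). Pdcd1 was at 165.4 to 529.4 CPM (median 298.6) against 15.7 to 82.2 CPM (median 41.9), also without overlap (log2 2.88 ± 0.19, adjusted p = 1.25e-07). It was found in 72.9% of the Trdc+ and 17.9% of the Trdc- cells. The other 2 checkpoint genes that were higher were Tnfrsf9 (1.77 ± 0.21) and Havcr2 (1.45 ± 0.20), and Tnfrsf4, Tnfrsf18 (-2.58 ± 0.24) and Nt5e, which encodes CD73 (-1.86 ± 0.36), were lower. The receptor chain Il2ra was higher (2.17 ± 0.21). Of 20 type 17 genes, 6 were higher and 2 lower, with a list median of 0.21. Among the 6 were Il1r1 (1.29 ± 0.21), Ramp1 (1.15 ± 0.17), Cxcr6 (1.05 ± 0.16) and Stat3 (0.99 ± 0.16), and the 2 lower genes were Il22 and Il18r1 (-0.94 ± 0.22). Ccr2 (1.10 ± 0.22), Gpr183 (0.91 ± 0.19) and Cxcr6 were the 3 homing genes of 12 that were higher. Serpine2, a protease inhibitor gene, was higher by 3.40 ± 0.44, and Ctla2a, whose product resembles a protease propeptide, was lower (-4.02 ± 0.60).

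Of the 8 tested markers of epithelial cells, neutrophils, macrophages and plasma cells, 0 passed in edgeR, 0 at an unadjusted p under 0.05, and 1 neutrophil gene in DESeq2. The neutrophil genes summed to 60.5 to 28090 CPM on the Trdc+ side and 101.1 to 10020 CPM on the Trdc- side. Of 13 dissociation genes 0 passed in edgeR (4 at an unadjusted p under 0.05, 0 in DESeq2), and of 6 proliferation genes Hmgb2 was lower (-0.63 ± 0.18, adjusted p = 0.0478), a call lost when any 1 of the 9 tumors but tumor 2 was left out (-0.51 to -0.70).

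**Figure D4:**
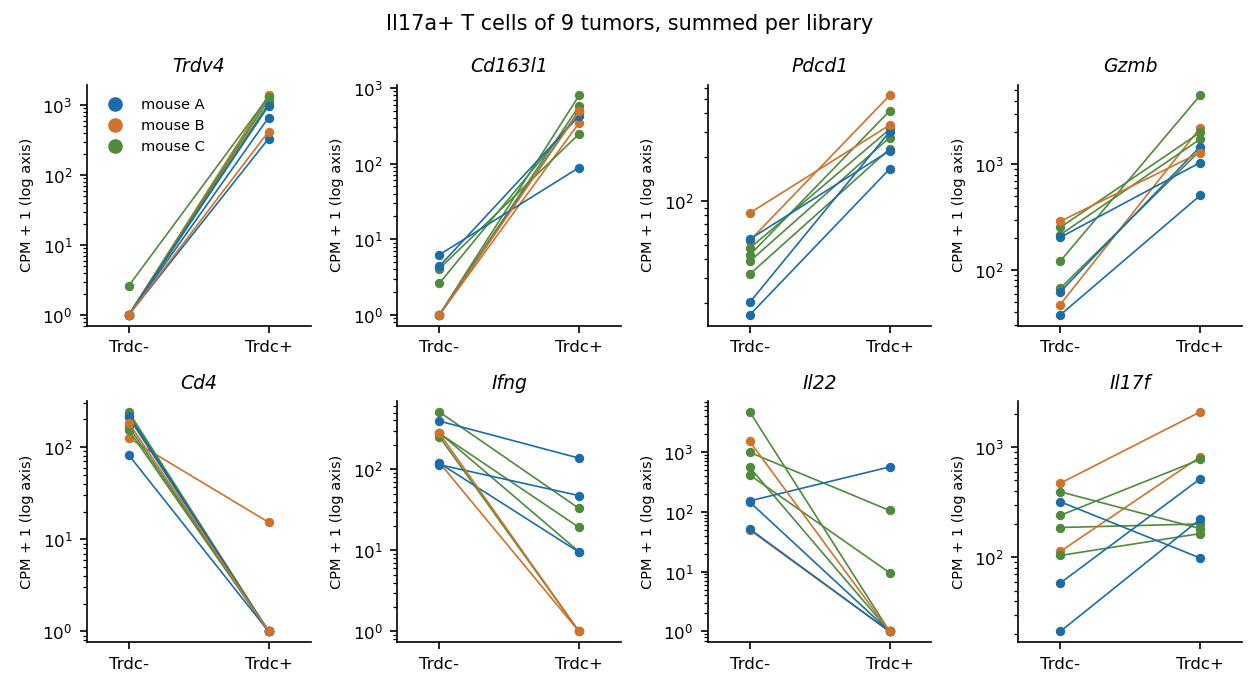
Levels of 8 genes in Trdc+ and Trdc- Il17a+ T cells of each of 9 tumors, as CPM + 1 on a log axis, with lines joining the 2 sides of a tumor. Trdv4, Cd163l1, Pdcd1 and Gzmb are higher and Cd4 is lower on the Trdc+ side without overlap, Ifng and Il22 are lower with overlap, and Il17f overlaps.

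The Il17a+ T cells of the 10 tumors were compared with those of the 3 mucosa samples, which held 25, 11 and 19 cells and 37595 to 126732 UMIs. Here 352 of 5883 genes passed (5.98%), 227 with the higher level in tumors (3.86% of those tested) and 125 with the lower level (2.12%), and for 11.9% of the genes the groups did not overlap. The median log2 fold change over all genes was 0.097. Without the libraries labelled female, which left 1 mucosa sample, 9 genes passed. Leaving out mucosa 3 gave 157 genes and leaving out mucosa 2 gave 231. RNA of other cells moved with the groups. The neutrophil genes summed to 73.6 to 9488 CPM in the cells of tumors and 0 to 15.8 CPM in those of mucosa, the macrophage genes to 250.2 to 5293 against 0 to 26.6 CPM, and the epithelial genes to 73.6 to 1797 against 1452 to 8255 CPM. S100a8, S100a9, Retnlg and Lyz2 had 0 UMIs in mucosa. The part of this RNA in the results was not tested. Barcodes with 2 or more UMIs of other lineages' markers were 126 of 843 in tumors and 6 of 55 in mucosa, and without them 119 genes passed (89 higher, 30 lower). Without the barcodes marked as doublets 112 genes passed (87 higher, 25 lower). Of the 11 cells of mucosa 2, 2 held markers of other lineages and 2 were marked as doublets. Either removal took this sample under the 10 cells needed, so both fits rest on mucosa 1 and 3 alone. The effect of the removal was not told apart from that of the lost sample. The genes below are marked where they passed without the barcodes of other lineages or the marked doublets. With the mouse as a block, since tumors and mucosa come from the same mice, 364 genes passed, and 9 of the 51 named genes that had passed no longer did. These were Lgals3 (-1.38, adjusted p = 0.405), Krt8 (-2.70, adjusted p = 0.0578), Lypd8, Atf3, Retnlg, Cd14, Jchain, Fcer1g and Wfdc17, the last 7 at adjusted p = 0.0505 to 0.0664. With the cells of the tumors of each mouse summed, so that each mouse gave 1 tumor value, 259 genes passed. Of the 51, 6 did not, namely Rora (adjusted p = 0.073), Icos (0.061), Lgals3 (0.225), Tgfb1 (0.104), Itga4 (0.0857) and Hsp90aa1 (0.0705), and Il22 passed (2.26, adjusted p = 0.0477).

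The type 17 program as a list was near the median of all genes, with 3 of 29 genes higher and 3 lower and a list median of 0.16. Il17f was at 63.7 to 658.5 CPM in tumors (median 204.4) and at 26.6, 267.8 and 552.3 CPM in the mucosa samples in rising order, a log2 difference of -0.09 ± 0.66 (adjusted p = 0.972). Il23r had 0.37 ± 0.67 (adjusted p = 0.819), and Il22 2.49 ± 1.16 (adjusted p = 0.228). Il17f turned to 0.92 without mucosa 1 and Il23r to -0.03 without mucosa 3. Of 7 γδ receptor genes 0 passed in edgeR (1 at an unadjusted p under 0.05, 0 in DESeq2). With 3 mucosa samples these intervals are wide, and values that did not pass are not shown to be equal.

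Ahr, the aryl hydrocarbon receptor that senses dietary and microbial ligands, was lower in tumors. It was at 20.1 to 44.4 CPM (median 35.9) in tumors and 53.2, 197.3 and 236.3 CPM in mucosa, without overlap (log2 -2.20 ± 0.35, adjusted p = 0.00168). Cxcr6, a receptor of tissue-resident T cells, was at 177.6 to 511.9 CPM (median 350.2) in tumors and 984.2, 1008 and 1152 CPM in mucosa, also without overlap (log2 -1.44 ± 0.25, adjusted p = 0.00273). Both passed without the barcodes of other lineages (-2.80 and -1.84) and without the marked doublets (-2.85 and -1.85). The third lower gene of the list, Lgals3, is also made by epithelial cells, and its mucosa values were 134.1, 266.0 and 3860 CPM, the last in mucosa 3, without which its log2 fold change was 1.03. Its call was lost also when any 1 of tumors 1 and 3 to 9 was left out (-2.05 to -2.21). Of 5 epithelial genes 2 were lower in tumors, Krt8 (-3.15 ± 0.69) and Lgals4 (-4.12 ± 0.86). Without mucosa 3 neither passed, with Krt8 at -1.58 (adjusted p = 0.348) and Lgals4 at -3.26 (adjusted p = 0.0992). With marked doublets removed, and so without mucosa 2, Krt8 turned to 0.28 and Lgals4 was at -0.094. Lower beyond the lists were, among others, Aldh1b1 (-6.26 ± 0.70) and Cdx2, a transcription factor of the gut epithelium (-6.28 ± 0.88).

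Areg and Ctla4 were higher in the Il17a+ T cells of tumors. Areg was at 559.0 to 2309 CPM (median 818.8) in tumors and 26.6, 86.8 and 204.8 CPM in mucosa, without overlap (log2 3.62 ± 0.64, adjusted p = 0.00309). It was found in 42.8% of the cells of tumors and 9.09% of those of mucosa, whose median depth was 2445 UMIs. Ctla4 was at 527.0 to 1004 CPM (median 665.1) against 141.8, 142.0 and 319.2 CPM, without overlap (log2 2.14 ± 0.30, adjusted p = 0.000523). Il7r was at 357.8 to 727.2 CPM (median 402.8) against 31.5, 142.0 and 266.0 CPM (log2 1.96 ± 0.37, adjusted p = 0.00458). Without the marked doublets they passed too (4.12, 2.56 and 2.09). These 3 genes passed also without the barcodes of other lineages, as did the receptor chains Ifngr1 (1.68 ± 0.26) and Il2rb (1.75 ± 0.30), the costimulatory receptor Tnfrsf9 (2.55 ± 0.56) and Cxcr4, which had 0 UMIs in mucosa and was at least 7.69-fold higher. Irs2, an adaptor of insulin receptor signalling, had 0 UMIs in mucosa and was at least 12.7-fold higher, and it too passed without those barcodes. Il2ra (2.13 ± 0.51), Stat3 (1.66 ± 0.37), Icos (1.01 ± 0.21), Gzmb (2.76 ± 0.73) and Rora (1.06 ± 0.28) were higher in all the cells together, Rora being above all 3 mucosa samples in 6 of 10 tumors. With the marked doublets removed, and so without mucosa 2, Ifngr1, Il2rb, Cxcr4 and Irs2 passed. In that fit the calls were lost for Tnfrsf9 (adjusted p = 0.104), Il2ra (0.12), Stat3 (0.0973), Icos (0.141), Gzmb (0.138) and Rora (0.0941). Without mucosa 3 the calls were lost for Tnfrsf9 (2.13, adjusted p = 0.0524), Stat3 (1.73, 0.0554), Il2ra (1.90, 0.0979), Rora (1.02, 0.109) and Gzmb (2.44, 0.131). Without mucosa 1 they were lost for Il2ra (2.60, 0.0528), Rora (1.0, 0.101) and Gzmb (3.33, 0.0643), and without mucosa 2 for Gzmb (2.92, 0.0869).

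Of 15 dissociation genes 6 were higher in tumors and 0 lower, and the list summed to 5406 to 9823 CPM in tumors and 3645 to 4033 CPM in mucosa. Nfkbia, an inhibitor of NF-κB that NF-κB itself induces, was at 776.9 to 1567 CPM (median 1057) in tumors and 212.8, 268.3 and 299.3 CPM in mucosa (log2 2.26 ± 0.27, adjusted p = 0.000181). Dusp1 and Junb were higher by 2.92 ± 0.45 and 1.79 ± 0.29. These genes passed also without the barcodes of other lineages and without the marked doublets (Nfkbia 1.96, Dusp1 1.96, Junb 1.28). Since tumors and mucosa were dissociated with different enzymes, tissue and dissociation cannot be told apart for these genes or for any other in this comparison. Of 10 proliferation genes 0 passed in edgeR (2 at an unadjusted p under 0.05, 1 in DESeq2).

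**Figure D5:**
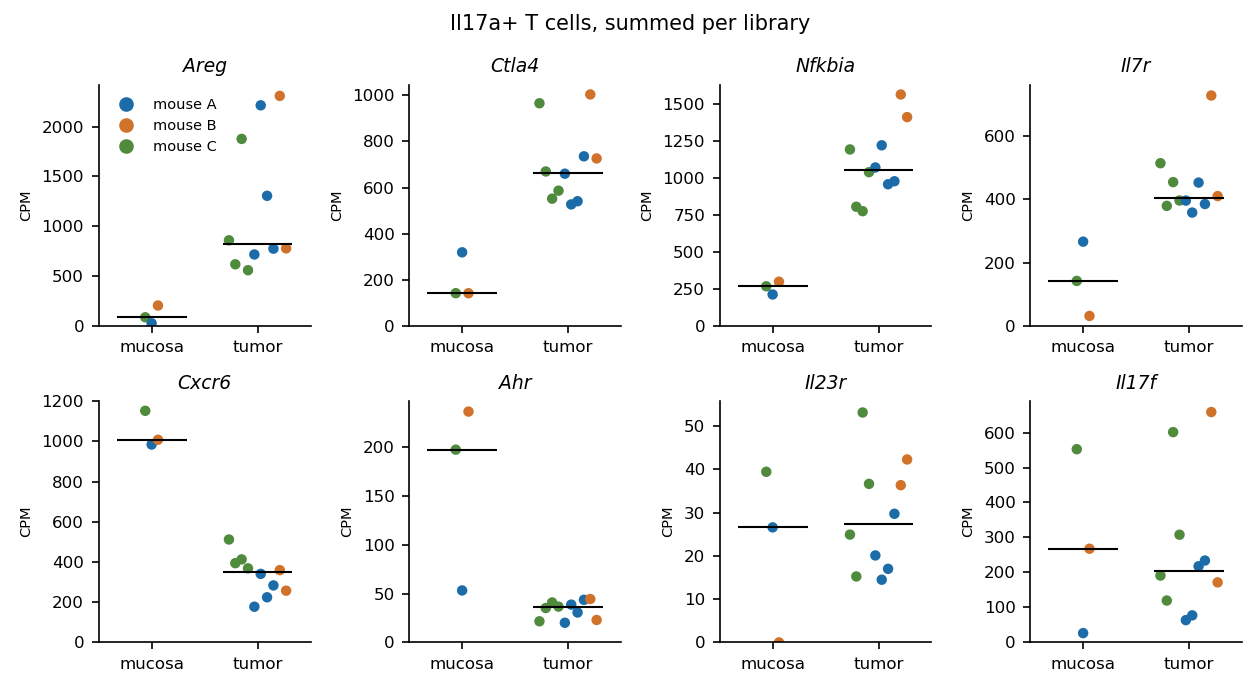
Levels of 8 genes in the Il17a+ T cells of 10 tumors and 3 mucosa samples, in CPM on a linear axis, with points for libraries and a line at the group median. Areg, Ctla4, Nfkbia and Il7r are higher and Cxcr6 and Ahr lower in tumors without overlap. Il23r and Il17f overlap and did not pass the test.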

How the data were processed

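Single-cell RNA of 10 colon tumors and 3 samples of adjacent mucosa was analysed from the deposited UMI counts per gene and barcode, made by the authors with Cell Ranger 6.0.0 on build mm10 per the submitters' processing notes. All 137591 deposited barcodes entered, and 118892 were retained (at least 500 UMIs, at least 200 genes, under 25% mitochondrial UMIs). The deposited counts of each library's gated cells were summed. Sums were tested with edgeR 4.0.16 (quasi-likelihood, TMM scaling, edgeR's filter on low counts, Benjamini-Hochberg adjustment over all genes tested, threshold 0.05) in R 4.3.3, with the library as a block within tumors and without a block between tissues, and with DESeq2 1.42.0 as an alternative. The gate genes were in each fit and in its adjustment but are not counted as results (nor is Trdc in its own division). CPM are counts per 1000000 UMIs of a sum. Python 3.11.15 with scipy 1.17.1 gave the permutation tests, intervals (95%, exact Clopper-Pearson) and thinning to 1000 UMIs.

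Tumors and mucosa with 1 animal code come from 1 mouse, and the deviations of a mouse's mucosa and tumors from their group means had correlations of 0.128, 0.101 and 0.158 over 5887 genes in mice A, B and C. Nothing in the labels says whether tumors of 1 mouse were handled apart, so p-values across tumors also measure the spread within mice. Doublets were not removed in the main analysis. Simulated doublets marked barcodes at 0.8% per 1000 barcodes of a library, 60 of 843 Il17a+ T cells of tumors and 5 of 55 of mucosa, and an alternative leaves them out. The members, gene lists and tests were chosen with earlier results of these data known. The text names, from each list, up to 6 genes with the smallest p in each direction, genes whose role makes their absence informative (Il23r, Ccr6, Il17f, Il22, Cd4, Trac, Ifng and Areg) and, beside the lists, up to 10 genes each with the largest rise and fall that kept their direction in at least 8 in 10 libraries. Genes of these lists that are not reported here stay in the list counts. Stratum values, shares of cells with a UMI and genes mentioned as not tested were added after their values were seen. Tested on simulated data, the fits recovered 89% of genes changed by 1 on the log2 scale within tumors between Il17a+ and Il17a- cells (91% at 2), 81% between Trdc+ and Trdc- cells (85% at 2), and 10% between tissues (50% at 2). Alternatives were DESeq2, no filter, thinning, removal of marked doublets or of barcodes with other lineages' markers, at least 2 Il17a UMIs, Trdc strata, a 10% mitochondrial limit, the block, summing the tumors of each mouse and leaving out each library. Leaving out the libraries labelled female was chosen after seeing the data.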

Additional observations from a re-analysis of the deposited data

Results flagged for a closer look

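Of 130 values tested for a library far from the others of its group, 28 were marked. Chance alone marks about 1 in 20 where values are independent and normally distributed. These values come from the same libraries and some lie near 0, so that rate gives no measure of an excess here. The Trdc+ share of the Il17a+ T cells was 56.82% in tumor 3, above the other tumors. In the Il17a+ T cells, tumor 3 was also the highest for Blk (179.9 CPM), Il1r1 (139.0 CPM), Tnfrsf9 (781.0 CPM), Abi3bp (151.3 CPM) and Izumo1r (16.36 CPM), and the lowest for Cd28 (28.62 CPM). Other tumors stood highest for Il7r (727.2 CPM in tumor 9), Cd40lg (68.15 CPM in tumor 1), S1pr1 (58.01 CPM in tumor 10) and Gramd3 (47.62 CPM in tumor 7). For genes near 0 in these cells, the highest were Itga1 and Cd8b1 in tumor 6 (16.92 and 19.34 CPM), Cd7 in tumor 2 (16.42 CPM), Xcl1 in tumor 4 (14.66 CPM) and Cd27 in tumor 5 (13.41 CPM).

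In the Trdc+ Il17a+ T cells, tumor 10 was the highest for Tnfrsf9 (2103 CPM), Serpine2 (1087 CPM), Ctla2a (615.2 CPM), Cd28 (28.62 CPM) and Cd4 (14.31 CPM, which is 1 UMI). Tumor 7 was the highest for Il22 (564.1 CPM) and Ifng (136.2 CPM), and tumor 9 for Il17f (2092 CPM) and Gpr183 (784.6 CPM). Areg stood at 5759 CPM in tumor 6, Gzmb at 4472 CPM in tumor 1 and Tcrg-C2 at 228.1 CPM in tumor 2.

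Il17a was also counted outside the T cells. Of 85225 barcodes of tumors with no CD3 UMI, 58 held Il17a (0.06806%, 95% exact binomial interval 0.0517 to 0.0880%), against 2 of 19537 in mucosa (0.0102%). These barcodes were in no comparison.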

How the results depend on the processing

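For Il17a+ against Il17a- T cells of tumors (1359 genes), 591 passed after thinning to 1000 UMIs, 753 among Trdc- cells, 342 among Trdc+ cells, 815 without the replicate block and 405 without the libraries labelled female, and leaving out each tumor gave 1143 to 1390. Without a filter on low counts 1514 passed, 476 higher and 1038 lower. For Trdc+ against Trdc- cells (205 genes), 464 passed without a filter, 70 after thinning and 59 without the libraries labelled female, and 163 to 241 with a tumor left out. For tumor against mucosa (352 genes), 544 passed without a filter, 89 after thinning, 112 with marked doublets removed, 119 without barcodes of other lineages and 9 without the libraries labelled female. With a library left out 157 to 392 passed, the lowest without mucosa 3, and 231 without mucosa 2. The fits with marked doublets removed and without barcodes of other lineages also lacked mucosa 2, which fell under 10 cells. DESeq2 gave 1156, 221 and 410 genes for the 3 comparisons. Tumor and mucosa come from the same mice, and a replicate block by mouse gave 364 genes in place of 352, of the 51 named genes that passed 42 still passing. Without the replicate block within tumors, 67 of 84 named genes still passed between Il17a+ and Il17a- cells and 38 of 40 between Trdc+ and Trdc- cells, none turned, and the second comparison gave 183 genes. Between tissues the median, over genes tested in both, of the change in a gene's log2 value from the main setting was 0.217 without a filter, -0.198 after thinning and 0.216 without the libraries labelled female. With the tumor cells of each mouse summed 259 genes passed, 45 of the 51 named genes among them.

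For the shares, the difference per retained barcode passed with a 10% mitochondrial limit (0.7606 points) and ranged from 0.517 to 0.814 with a library left out. The share of CD3+ barcodes ranged from 9.57 to 11.76 points and was 6.506 without the libraries labelled female, and the share of Trdc+ T cells ranged from 35.48 to 46.15 and was 32.32; without any 1 mucosa sample neither could pass after adjustment. The Trdc+ share of Il17a+ T cells turned to -4.551 points without the libraries labelled female and ranged from 6.25 to 14.7 with a library left out. Permuted without the replicate block, the 4 differences were 10.09 (CD3+ barcodes), 43.18 (Trdc+ T cells), 0.634 (retained barcodes) and 12.82 points.

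Single genes turned direction. Between Il17a+ and Il17a- cells these were Tcrg-C2 (-0.36), Tcrg-C4 (-0.23) and Junb (-0.10) among Trdc+ cells, and Cd6 (0.12), Tnfrsf9 (-0.087), Gzmb (-0.65) and Cd4 (0.22) among Trdc- cells. Between tissues they were Lgals3 (1.03 without mucosa 3, and -2.65 to 1.03 with any library left out, 0.61 without the libraries labelled female), Il23r (-0.03037 without mucosa 3, and -0.03037 to 1.785) and Cd4 (0.043 without mucosa 3, and -0.4152 to 0.0425), Ccr6 (0.44) without the libraries labelled female, and Krt8 (0.28), Ceacam1 (5.28) and Lypd8 (0.30) with marked doublets removed. Il17f between tissues turned in DESeq2 (0.025), without a filter (0.099), after thinning (0.052), with the block by mouse (0.12), without the libraries labelled female (3.78), and without mucosa 1 (0.92), tumor 5 (0.019) or tumor 6 (0.0052), with -0.48 to 0.92 over the libraries left out. The cause was not tested. Of 51 named genes that passed between tissues, 15 passed without barcodes of other lineages and 12 with marked doublets removed, both in fits without mucosa 2. The main comparison between tissues has 3 mucosa samples with 11 to 25 cells each.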
